A study of Bos taurus with 8 samples.

Results

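The 9 genes described here are PLIN2, PLIN3, PLIN5 and HILPDA of the lipid droplet, CD36, FABP5 and ANGPTL4 of fatty acid supply, PDK4 of fuel choice and EHHADH of the peroxisome. They were taken by their symbols, as a list drawn up with earlier results of these data known, from a table of read counts for 33132 genes in rumen tissue. The rumen is the first and largest forestomach of cattle, lined by a squamous epithelium over a muscle wall. Libraries came from 4 adult steers (castrated males) and 4 neonatal male calves, all of angus cross breed, with 1 RNA library per animal. The study asked which genes and regulators accompany growth of the rumen after birth. Age and castration differed together between the groups and cannot be told apart, and the labels give no diet, weaning state or sequencing batch.

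Peroxisome proliferator-activated receptors (PPARs) are nuclear receptors that bind fatty acids and, with a retinoid X receptor (RXR) partner, switch on genes that store, carry and burn fat. Perilipins coat the droplets in which cells keep triglyceride. Peroxisomes shorten very long, branched and dicarboxylic fatty acids before mitochondria finish them. In adult ruminants the rumen epithelium absorbs short-chain fatty acids made by microbes and turns butyrate into ketone bodies, whereas a newborn calf lives on milk fat and its rumen has not begun to ferment. The 9 genes are known PPAR targets mainly from rodent and human cells, and several also respond to low oxygen or glucocorticoids.

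Values are CPM, the usual count rate in which every library is brought to a common total, here with factors from the trimmed mean of M values. Every log2 change is steer minus calf from edgeR's quasi-likelihood test across all 16326 genes that passed the filter on low counts, and a gene was called at a Benjamini-Hochberg adjusted p under 0.05. The 8 libraries held 42322022 to 54449684 counts, and the median log2 change over all tested genes was 0.04. Reads were counted over whole transcript spans, introns included, so CPM compares 1 gene between animals and not different genes. In bulk tissue fewer cells of a type and less RNA per cell cannot be told apart. Squamous epithelium markers summed to between 18960 and 38320 CPM in steers and between 15170 and 21450 CPM in calves. DSG3 was at 0 in every library, but its span is wholly shared and shared reads were dropped, so it could not be measured. Smooth muscle markers summed to between 12130 and 123900 CPM in steers, lowest in steer 4 and highest in steer 2, and to between 7677 and 21720 CPM in calves. Macrophage markers (AIF1 at 0, its span wholly shared) summed to between 27.9 and 91.5 CPM in steers and between 60.2 and 109 CPM in calves. Striated muscle markers (MYH1 at 0, and CASQ1 at 0 with its span wholly shared) summed to between 26.9 and 131 CPM in steers and between 38.2 and 82.7 CPM in calves. Red cell markers (HBM and SLC4A1 among those at 0) summed to between 4.02 and 9.90 CPM in steers and between 8.54 and 15.7 CPM in calves. Smooth muscle and adipocyte marker levels were each entered in a fit as a covariate, and the part of the other cell types in the results was not tested. Across all tested genes, 7.7% were called higher in steers and 9.16% lower. In steers 2 of 14 tested squamous markers rose and 2 fell, and of 11 smooth muscle markers 4 rose and 1 fell. Of 10 macrophage markers 1 rose and 1 fell, of 7 striated muscle markers 2 rose and 2 fell, and of 3 red cell markers edgeR called 0 (2 had an unadjusted p under 0.05, HBB and HBQ1, with adjusted p of 0.0808 and 0.138).

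Of the 9 genes, 7 passed the filter and were tested. PLIN2 and FABP5 rose in steers, which is 2 of 7, where 7.7% of all tested genes rose. EHHADH fell in steers, which is 1 of 7, where 9.16% of all tested genes fell. Counting both directions, 3 of the 7 were called, against 16.9% of all tested genes. The same 3 genes had CPM ranges that did not overlap between the groups, against 23.3% of all tested genes. PLIN3, ANGPTL4, PDK4 and CD36 were not called, and PLIN5 and HILPDA had too few counts to be tested. A gene without a call is not shown to be alike in the groups.

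**Figure D1:**
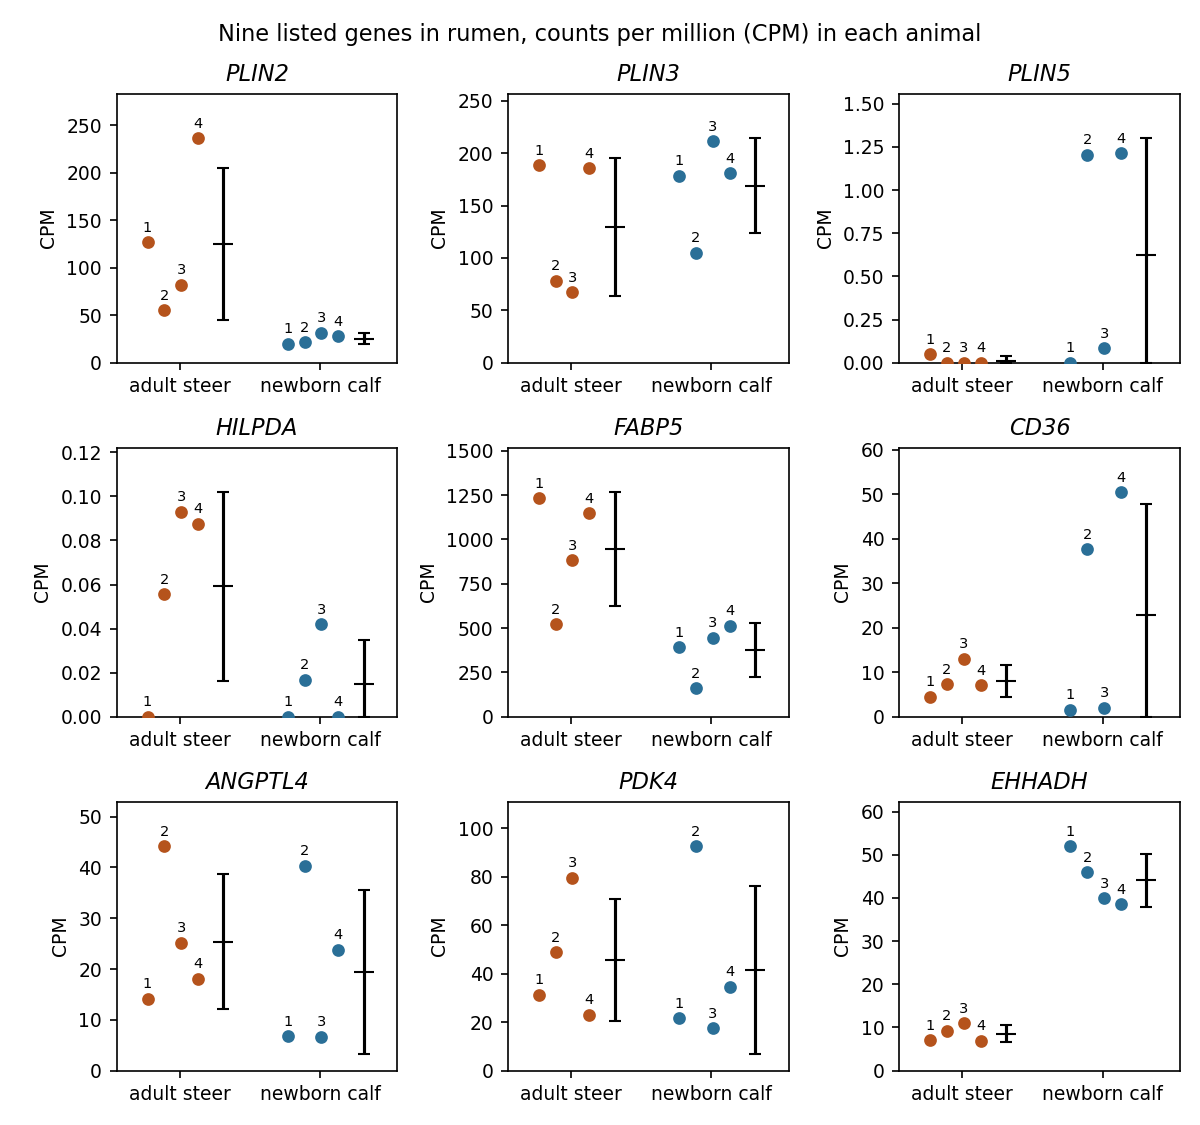
CPM (linear axes that start at 0) of the 9 genes in each adult steer (left) and newborn calf (right), with animal numbers beside the points, and the mean and SD of each group (n = 4; SD bars are clipped at 0). The steers sit wholly above the calves for PLIN2 and FABP5 and wholly below them for EHHADH, while CD36 and PLIN5 are highest in calf 2 and calf 4.

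PLIN2, the perilipin found on droplets of most tissues and a standard marker of stored fat, lay on chromosome 8 from 25117110 to 25131174 on the plus strand. It had 127, 55.1, 81.9 and 236 CPM in steers 1 to 4, against 19.8, 21.6, 31.7 and 27.9 CPM in calves 1 to 4. Every steer was above every calf, and steer 4 alone had more than 4 times the level of steer 2. The groups averaged 125 ± 79.8 CPM in steers and 25.2 ± 5.53 CPM in calves (SD, n = 4 each), a fold of 4.95. The log2 change was 2.31 ± 0.42 (SE), with an adjusted p of 0.006 by edgeR. With any 1 library left out it stayed called, at log2 changes of 1.80 to 2.56. Steer 4, highest for PLIN2, had the lowest smooth muscle marker sum of the steers, and steer 2, the steer lowest for PLIN2, had the highest. With the mean log2 level of the smooth muscle markers, rather than their sum, as a covariate, the PLIN2 log2 change was 2.88 (adjusted p = 0.000136). Without calf 2 and calf 4 together it was 2.29, and the call ended (adjusted p = 0.0658, 2 calves left).

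PLIN3, a perilipin that moves between cytosol and new droplets, lay on chromosome 7 from 19291317 to 19311906. It had 188, 78.2, 67.5 and 185 CPM in steers 1 to 4, against 178, 105, 212 and 181 CPM in calves 1 to 4. The groups overlapped, since steers 1 and 4 were at the level of 3 of the calves while steers 2 and 3 were the lowest of the 8 libraries. The means were 130 ± 66 CPM in steers and 169 ± 45.2 CPM in calves (SD, n = 4 each). The log2 change was -0.38 ± 0.38 (SE, adjusted p = 0.542 by edgeR).

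The balance between these coats was read within each library, where library size cancels. PLIN2 had 0.672, 0.704, 1.21 and 1.27 counts for each PLIN3 count in steers 1 to 4, against 0.111, 0.206, 0.150 and 0.155 in calves 1 to 4. The lowest steer ratio was above the highest calf ratio. On the log2 scale, with 0.5 added to each count, the ratio averaged -0.11 ± 0.49 in steers and -2.72 ± 0.37 in calves, a difference of 2.61. The exact two-sided permutation test over the 8 animals gave p = 0.0286, the smallest this design allows, and 0.0571 after Benjamini-Hochberg adjustment over the 6 ratios computed. The ratio was formed from 2 genes chosen with their levels known, so the p is a description of these animals.

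Among all counts of the 5 perilipin genes, PLIN2 held 33.4%, 17.7%, 28.8% and 51.3% in steers 1 to 4, against 8.41%, 9.43%, 11.8% and 9.63% in calves 1 to 4. PLIN4, which coats small nascent droplets, held 16.2%, 56.0%, 45.7% and 7.40% in steers, against 14.6%, 31.7%, 7.85% and 18.9% in calves. These shares compare animals and not genes, since the genes differ in length. The PLIN4 share was highest in steer 2, which had the lowest PLIN2 share of the steers and the highest smooth muscle sum, and lowest in steer 4, which had the reverse. PLIN1, the adipocyte perilipin, held 0.70% to 1.71% in steers and 1.08%, 12.6%, 1.29% and 8.77% in calves 1 to 4.

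**Figure D2:**
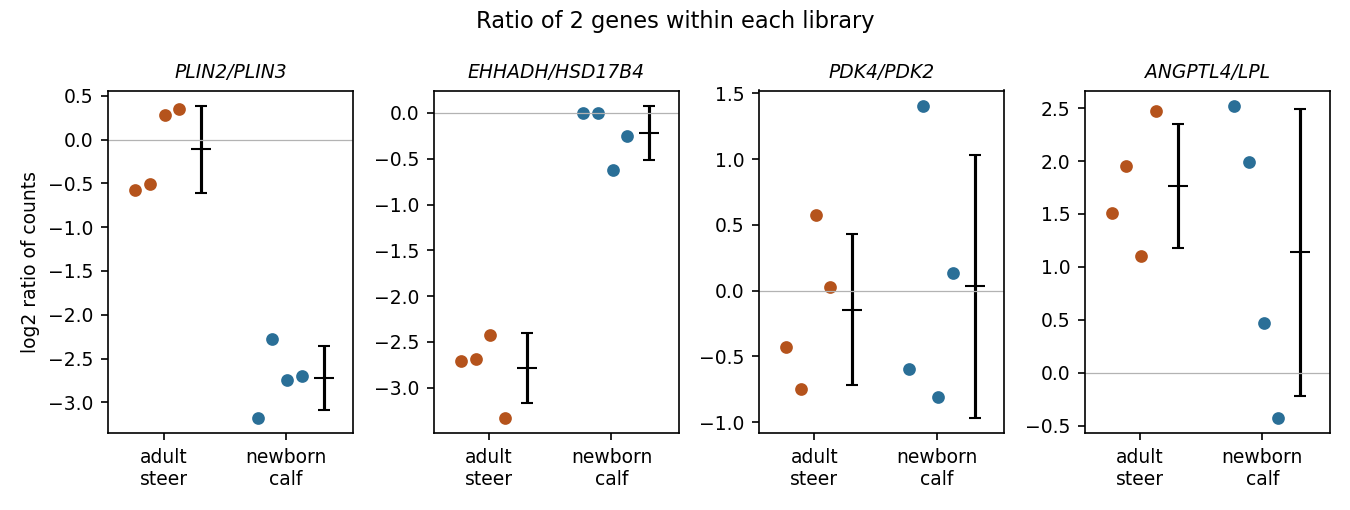
Log2 ratio of the counts of 2 genes within each library for PLIN2 to PLIN3, EHHADH to HSD17B4, PDK4 to PDK2 and ANGPTL4 to LPL, with adult steers left and newborn calves right, and the mean and SD of each group (n = 4). The groups are apart for PLIN2 to PLIN3 and for EHHADH to HSD17B4 and overlap for the other ratios.

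PLIN5, which tethers droplets to mitochondria in fat-burning muscle and liver, lay on chromosome 7 from 19600495 to 19611773 and was near the limit of detection. It had 2, 0, 0 and 0 counts in steers 1 to 4, against 0, 72, 4 and 58 counts in calves 1 to 4. Nearly all PLIN5 reads thus came from calf 2 and calf 4, at 1.21 CPM each, while calf 1 had none, as had 3 of the steers. Because each mate adds a count, counts were halved and rounded up in each library, which left 1 pair in steers against 67 in calves. The ratio of steers to calves was 0.0158, with an exact 95% interval of 0.000395 to 0.0913 that covers counting error only and not the spread between calves. PLIN5 failed the filter on low counts and has no call. With no filter its adjusted p by edgeR was 0.044, from counts held nearly all by calf 2 and calf 4.

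HILPDA, a small droplet protein induced by low oxygen that inhibits triglyceride breakdown, lay on chromosome 4 from 92647984 to 92650046. It had 0, 2, 5 and 5 counts in steers 1 to 4, against 0, 1, 2 and 0 counts in calves 1 to 4. The totals of 12 counts in steers and 3 in calves were too low to compare. FAM71F2 covers 52.6% of the HILPDA span, and reads in the shared stretch were dropped by the authors' counting, so the low counts do not show that the gene is silent.

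CD36, the long-chain fatty acid transporter of fat, muscle, capillaries and macrophages, lay on chromosome 4 from 40380301 to 40474056 on the minus strand. It had 4.45, 7.24, 13.04 and 7.05 CPM in steers 1 to 4, against 1.58, 37.6, 2.02 and 50.4 CPM in calves 1 to 4. The calves fell apart: calf 2 and calf 4 were above every steer, and calf 1 and calf 3 were below every steer. The means were 7.94 ± 3.63 CPM in steers and 22.9 ± 24.9 CPM in calves (SD, n = 4 each), and the log2 change was -1.53 ± 0.96 (SE, adjusted p = 0.314 by edgeR). With 1 library left out the log2 change ran from -1.91 to -0.80 (without calf 4), and no fit called it. Without calf 2 and calf 4 it was 2.15 (adjusted p = 0.0457), where 6.74% of all tested genes were called. Those calves hold the highest CD36 values of the 8 libraries, so leaving them out sets that direction, and no change of CD36 is claimed.

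Calf 2 and calf 4 also stood apart for some genes of fat cells. ADIPOQ, the adipocyte hormone adiponectin, had 0.40, 0.445, 0.41 and 0.245 CPM in steers 1 to 4, against 0.0932, 41.7, 1.35 and 45.9 CPM in calves 1 to 4. PLIN1 had 2.65, 3.90, 4.86 and 4.42 CPM in steers, against 2.54, 28.8, 3.45 and 25.4 CPM in calves. CIDEC, which fuses adipocyte droplets, had 1.30, 1.503, 0.224 and 0.21 CPM in steers, against 0, 8.13, 2.15 and 32.4 CPM in calves. All of these were highest in the same calves as CD36 and PLIN5. In all, 6 of 12 adipocyte markers and 5 of 12 endothelial markers were higher in both calves than in any other library, against 0 of 12 macrophage and 0 of 12 smooth muscle markers. Other adipocyte markers went the other way in calf 2, where CIDEA (13.9 CPM), CFD (6.21 CPM) and RETN (0 CPM) were lowest of all libraries. Between the groups, 0 of 11 tested adipocyte markers rose and 3 fell in steers, and 0 of 12 endothelial markers rose and 4 fell. Of all tested genes, 7.7% rose and 9.16% fell. Over all tested genes, 856 of 16326, or 5.24%, were higher in calf 2 and calf 4 than in any other library.

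The summed adipocyte markers did not separate these calves as cleanly, with 94.6 to 534 CPM in steers and 93.9 to 659 CPM in calves. FABP4, the abundant adipocyte fatty acid binding protein, sets much of that sum, with 430, 21.6, 121 and 171 CPM in steers 1 to 4, against 2.05, 57.1, 10.2 and 394 CPM in calves 1 to 4. Endothelial markers summed to between 307 and 358 CPM in steers and between 397 and 881 CPM in calves. With the mean adipocyte marker level as a covariate the CD36 log2 change was 0.50 (adjusted p = 0.74), against -1.53 without it. The covariate left PLIN2 at 2.37 (adjusted p = 0.0188) and EHHADH called (adjusted p = 0.00082), while the FABP5 call ended (adjusted p = 0.0903). No label says how each piece of rumen was dissected.

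**Figure D3:**
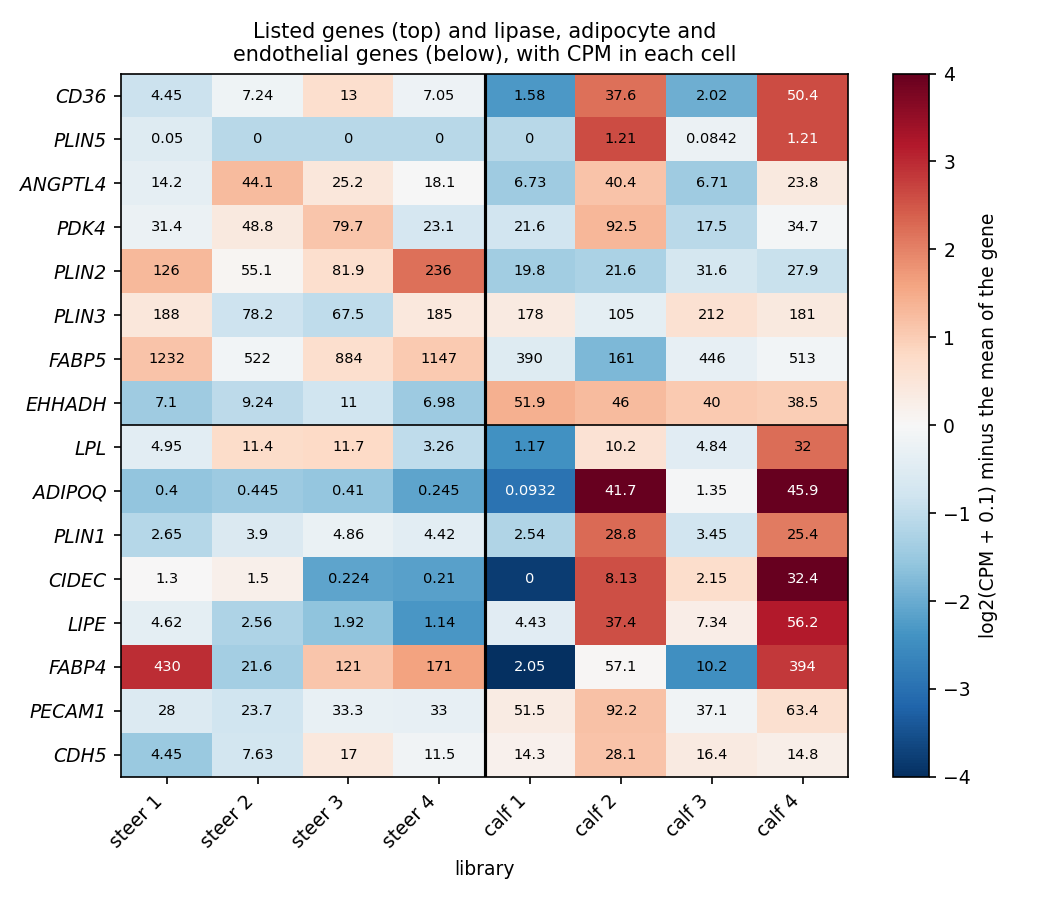
CPM in each library (numbers in the cells), coloured by log2(CPM + 0.1) minus the mean of the gene, for 8 of the listed genes above the line and LPL, adipocyte and endothelial genes below it, with adult steers left and newborn calves right. CD36, PLIN5, ADIPOQ, PLIN1, CIDEC and LIPE are highest in calf 2 and calf 4, while PLIN2, FABP5 and EHHADH divide steers from calves.

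FABP5, the fatty acid binding protein of squamous epithelia, which carries fatty acids and retinoic acid to PPARD, lay on chromosome 14 from 44488912 to 44494877. It had 1232, 522, 884 and 1147 CPM in steers 1 to 4, against 390, 161, 447 and 513 CPM in calves 1 to 4. Every steer was above every calf, but steer 2 and calf 4 were nearly level. The means were 946 ± 319 CPM in steers and 378 ± 153 CPM in calves (SD, n = 4 each), a fold of 2.51. The log2 change was 1.33 ± 0.40 (SE), with an adjusted p of 0.0478 by edgeR, just inside the threshold. Leaving out 1 library gave log2 changes of 1.07 to 1.54, and the call held only without steer 2 and ended without steer 1, 3 or 4 or any 1 calf (adjusted p of 0.0291 to 0.106 over the 8 fits). Without calf 2 and calf 4 together the adjusted p was 0.138. A neighbour, LOC104974070, shares 17.1% of the span.

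ANGPTL4, a secreted inhibitor of lipoprotein lipase, lay on chromosome 7 from 17005585 to 17012655. It had 14.2, 44.2, 25.2 and 18.1 CPM in steers 1 to 4, against 6.73, 40.4, 6.71 and 23.8 CPM in calves 1 to 4. The groups overlapped, with calf 1 and calf 3 the lowest of the 8 libraries and steer 2 and calf 2 the highest. The means were 25.4 ± 13.3 CPM in steers and 19.4 ± 16.1 CPM in calves (SD, n = 4 each), and the log2 change was 0.39 ± 0.60 (SE, adjusted p = 0.708 by edgeR). It ran from -0.01 to 1.03 with 1 library left out, the highest without calf 2, and was 1.92 without calf 2 and calf 4 (adjusted p = 0.0536).

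LPL, the lipoprotein lipase that ANGPTL4 inhibits, had 4.95, 11.4, 11.7 and 3.26 CPM in steers 1 to 4, against 1.17, 10.2, 4.84 and 32.0 CPM in calves 1 to 4. Its log2 change was -0.62 (adjusted p = 0.653) and turned to 0.53 without calf 4. The log2 ratio of ANGPTL4 to LPL averaged 1.76 ± 0.59 in steers and 1.14 ± 1.36 in calves (SD, n = 4 each; exact permutation p = 0.457, adjusted 0.651). The order of the animals for LPL was unlike that for ANGPTL4 in the calves: calf 4 had the most LPL and calf 2 the most ANGPTL4.

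PDK4, the kinase that shuts pyruvate dehydrogenase and spares glucose when fat is burned, lay on chromosome 4 from 12881889 to 12895362 on the minus strand. It had 31.4, 48.8, 79.7 and 23.1 CPM in steers 1 to 4, against 21.6, 92.6, 17.5 and 34.7 CPM in calves 1 to 4. The highest level was in calf 2, next came steer 3, and the groups overlapped. The means were 45.7 ± 25 CPM in steers and 41.6 ± 34.8 CPM in calves (SD, n = 4 each), and the log2 change was 0.14 ± 0.55 (SE, adjusted p = 0.897 by edgeR). Its sign turned with 1 library left out, from -0.27 without steer 3 to 0.89 without calf 2. PDK2, the most widely expressed kinase of the family, averaged 50.2 ± 24.8 CPM in steers and 32.5 ± 1.88 CPM in calves (log2 change 0.63, adjusted p = 0.226), and was called only without steer 4 (0.87, adjusted p = 0.0308). The log2 ratio of PDK4 to PDK2 averaged -0.15 ± 0.57 in steers and 0.03 ± 1.00 in calves (exact permutation p = 0.8286, adjusted 0.8286).

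EHHADH, the peroxisomal L-bifunctional enzyme that performs the middle steps of straight-chain β-oxidation and serves dicarboxylic acids, lay on chromosome 1 from 81877820 to 81932666 on the plus strand. It had 7.10, 9.24, 11.03 and 6.98 CPM in steers 1 to 4, against 51.9, 46.0, 39.98 and 38.5 CPM in calves 1 to 4. Every steer was far below every calf, and the animals of each group lay close together. The means were 8.59 ± 1.93 CPM in steers and 44.1 ± 6.16 CPM in calves (SD, n = 4 each), a fold of 0.195. The log2 change was -2.36 ± 0.22 (SE), with an adjusted p of 0.000253 by edgeR. It was called in each of the 8 fits that left out 1 library, at -2.50 to -2.26, and without calf 2 and calf 4 (adjusted p = 0.00318).

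HSD17B4, the D-bifunctional enzyme that performs the same steps for branched and very long chains, had 46.6, 59.5, 59.2 and 70.1 CPM in steers 1 to 4, against 52.1, 46.1, 61.8 and 45.7 CPM in calves 1 to 4. Its groups overlapped, with a log2 change of 0.20 (adjusted p = 0.531). EHHADH had 0.152, 0.155, 0.186 and 0.0996 counts for each HSD17B4 count in steers 1 to 4, against 0.997, 0.999, 0.647 and 0.843 in calves 1 to 4. The log2 ratio averaged -2.79 ± 0.38 in steers and -0.22 ± 0.30 in calves, a difference of -2.57 (exact permutation p = 0.0286, adjusted 0.0571). As with PLIN2 and PLIN3, the groups were wholly apart and the p is the smallest that 4 against 4 animals allow. The EHHADH to HSD17B4 ratio was likewise formed from genes chosen with their levels known, so its p is a description of these animals.

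**Figure D4:**
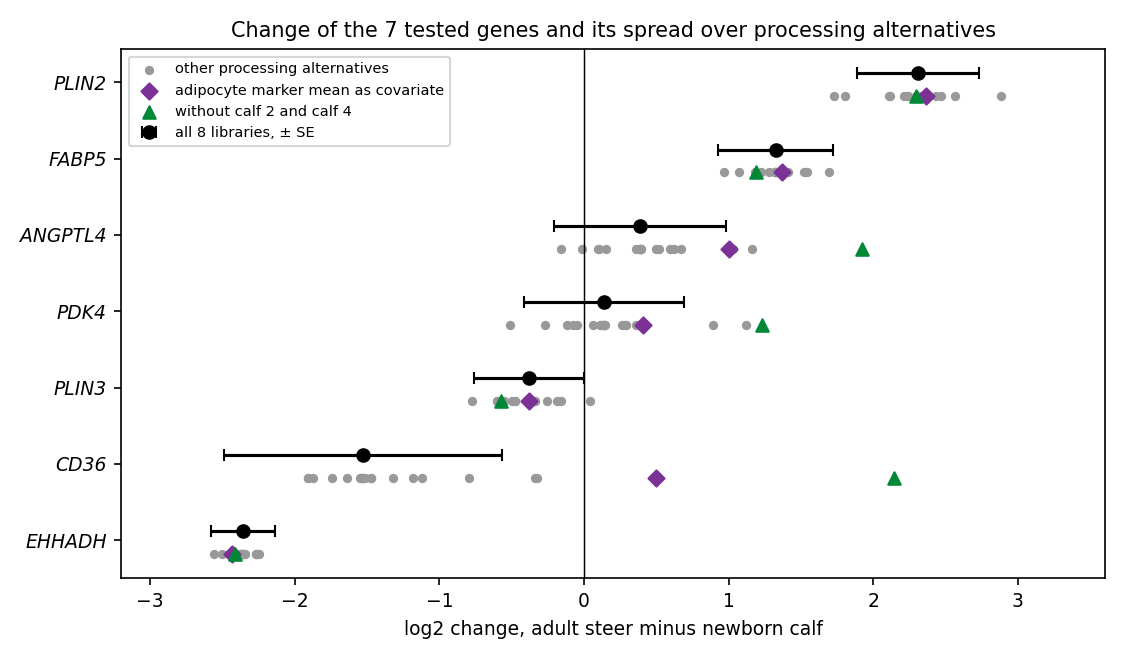
Log2 change (steer minus calf) of the 7 tested genes, as the estimate from all 8 libraries with its SE (black, upper row of each gene) and under each other setting (lower row), with the adipocyte covariate and the fit without calf 2 and calf 4 marked. PLIN2, FABP5 and EHHADH keep their sign in every setting drawn, and CD36 runs from -1.91 to 2.15.

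The other genes of the pathway were taken from lists by known function, which were also drawn up with earlier results known. Beside the counts below, 7.7% of all tested genes rose and 9.16% fell, and no list was tested against these shares. Of 22 tested peroxisomal oxidation enzymes, 7 rose and 0 fell in steers, with a median log2 change of 0.41, so EHHADH went the other way from the called enzymes of that list. PHYH acts in the breakdown of phytanic acid, the chlorophyll-derived fatty acid of ruminants. It averaged 84.8 ± 34.7 CPM in steers and 24.3 ± 5.89 CPM in calves (log2 change 1.80 ± 0.31, SE, adjusted p = 0.00461 by edgeR). CRAT, the carnitine acetyltransferase, averaged 136 ± 51.7 CPM in steers and 50.7 ± 12.6 CPM in calves (1.43 ± 0.30, adjusted p = 0.0114). MLYCD, the malonyl-CoA decarboxylase, averaged 78.5 ± 11.3 CPM in steers and 46.3 ± 5.08 CPM in calves (0.76 ± 0.18, adjusted p = 0.0178; the call ended without calf 1). CROT, AMACR, SLC27A2 and ECI2 were the other 4 that rose. Of the ECI2 span 68.9% is shared with another gene, and SLC27A2 had only 0, 4, 2 and 20 counts in calves 1 to 4. CROT, which hands shortened chains to carnitine for the mitochondria, is named here after its value was seen, and averaged 59.9 ± 23.2 CPM in steers and 10.99 ± 1.96 CPM in calves (2.45 ± 0.30, adjusted p = 0.000889). The thiolase gene ACAA1 and the catalase gene CAT, also chosen after their values were seen, had adjusted p of 0.772 and 0.290, with overlapping groups.

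Of 17 tested peroxins, which build peroxisomes, 1 rose and 1 fell, with a median log2 change of 0.21. PEX11G, a factor of peroxisome division, averaged 126 ± 44.7 CPM in steers and 44.3 ± 14.2 CPM in calves (1.503 ± 0.33, adjusted p = 0.0135 by edgeR), and 30.6% of its span is shared with another gene. PEX5L, a relative of the import receptor PEX5, averaged 0.238 CPM in steers and 2.48 CPM in calves (-3.35 ± 0.46, adjusted p = 0.00146). The other 15 had no call.

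Of 29 other tested droplet genes, 4 rose and 4 fell, with a median of -0.22. HSD17B13, a droplet-bound dehydrogenase, averaged 1160 ± 723 CPM in steers and 216 ± 72.5 CPM in calves (2.43 ± 0.47, adjusted p = 0.00776 by edgeR). METTL7A, a methyltransferase-like protein of the endoplasmic reticulum and droplet surface, averaged 439 ± 94.7 CPM in steers and 27.3 ± 9.54 CPM in calves (4.01 ± 0.35, adjusted p = 0.000186). Both rose in steers, as PLIN2 did. FITM2, which helps droplets bud, had a log2 change of 0.70 ± 0.20 (adjusted p = 0.0434), a call that ended without steer 1, steer 4 or any 1 calf. HSD17B11, a droplet-bound relative of HSD17B13, was the other one that rose (1.16, adjusted p = 0.032).

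The droplet genes that fell in steers included enzymes that make and break triglyceride. DGAT2, which performs the last step of triglyceride synthesis, averaged 2.07 ± 0.388 CPM in steers and 58.8 ± 64.9 CPM in calves (-4.83 ± 0.83, adjusted p = 0.00459 by edgeR), or -3.73 without calf 4. In calves 1 to 4 it had 6.66, 48.98, 26.9 and 153 CPM. DGAT2, MGLL and LIPE were all highest in calf 2 and calf 4. In those calves 6 of 12 adipocyte markers, LIPE among them, were higher than in any other library. With the adipocyte marker level as a covariate, the DGAT2 log2 change was -3.22 (adjusted p = 0.000199) and the MGLL log2 change -0.88 (0.0716, no longer called). The LIPE log2 change was -2.10 (0.0182) in that fit. LIPE is itself one of the markers averaged in the covariate, so its value there cannot show what remains beside the adipocyte markers. LPIN2, a phosphatidate phosphatase, averaged 14.5 ± 5.63 CPM in steers and 62.1 ± 29.7 CPM in calves (-2.10 ± 0.40, adjusted p = 0.00693), and was lowest of the calves in calf 4 and next lowest in calf 2. MGLL, the monoglyceride lipase, had a log2 change of -1.24 ± 0.34 (adjusted p = 0.0334), a call that ended without steer 1, 3 or 4 or without calf 2 or 4. LIPE, the hormone-sensitive lipase and also an adipocyte marker, was the other one that fell (adjusted p = 0.02), a call that ended without steer 3 or without calf 4 (log2 change -2.68), and 65.8% of its span is shared.

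Among the receptors, PPARA averaged 41.3 ± 9.86 CPM in steers and 32.5 ± 9.61 CPM in calves (log2 change 0.35, adjusted p = 0.409 by edgeR). PPARD averaged 156 ± 79.7 CPM in steers and 106 ± 24.8 CPM in calves (0.56, adjusted p = 0.311). PPARG could not be measured, since its whole span is shared and shared reads were dropped. Of 16 tested receptors and cofactors 0 rose and 2 fell, with a median of 0.11. RXRG averaged 0.651 ± 0.177 CPM in steers and 5.86 ± 6.94 CPM in calves (-3.17 ± 0.79, adjusted p = 0.0229), a call that ended without steer 1 or 3, with a log2 change of -1.91 without calf 4. RXRG had 0.978, 3.95, 2.40 and 16.1 CPM in calves 1 to 4, so it too was highest in calf 2 and calf 4, and with the adipocyte covariate the RXRG log2 change was -1.69 (adjusted p = 0.0215).

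Of 21 other tested genes of fatty acid uptake, binding and activation, 2 rose and 3 fell, with a median of -0.14. CRABP2, a retinoic acid carrier of the same protein family as FABP5, averaged 0.526 CPM in steers and 8.88 CPM in calves (-4.06 ± 0.48, adjusted p = 0.000693 by edgeR), the opposite direction to FABP5. SLC27A3, an acyl-CoA synthetase of the fatty acid transport family, averaged 16.4 ± 3.47 CPM in steers and 38.3 ± 12.5 CPM in calves (-1.23 ± 0.27, adjusted p = 0.0145). GOT2, the mitochondrial aspartate aminotransferase that also binds fatty acids at the cell surface, rose by 0.66 (adjusted p = 0.0205), a call that ended without calf 1 or calf 3. ACSL6, a long-chain acyl-CoA synthetase, rose by 2.08 (adjusted p = 0.0137) at levels of 0.831 CPM in steers and 0.196 CPM in calves.

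The pyruvate dehydrogenase system around PDK4 gave 6 that rose and 0 that fell of 13 tested, with a median of 0.77. PDK3, a kinase of the same family, averaged 103 ± 31.2 CPM in steers and 43.8 ± 11.6 CPM in calves (1.23 ± 0.28, adjusted p = 0.0154 by edgeR). MPC2, a subunit of the carrier that brings pyruvate into mitochondria, averaged 42.6 ± 2.28 CPM in steers and 24.3 ± 3.498 CPM in calves (0.81 ± 0.17, adjusted p = 0.0117). Its partner MPC1 had a log2 change of 1.42 ± 0.39 (adjusted p = 0.032), a call that ended without steer 1 or 3 or without calf 1, 2 or 3. The complex subunits DLD, DLAT and PDHX were the other 3 that rose.

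Of 27 other tested PPAR targets, most of them of mitochondrial fatty acid oxidation but also secreted, membrane and endoplasmic reticulum proteins, 8 rose and 2 fell, with a median of 0.55. ACADS, the short-chain acyl-CoA dehydrogenase, averaged 1622 ± 527 CPM in steers and 281 ± 121 CPM in calves (2.53 ± 0.44, adjusted p = 0.00459 by edgeR). ETFDH, which passes electrons from fatty acid oxidation to the respiratory chain, rose by 1.59 (adjusted p = 0.0302), a call that ended without calf 1, 2 or 4.

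UCP2, an uncoupling protein, fell to 23.9 ± 7.22 CPM in steers, against 59.9 ± 19.4 CPM in calves (-1.33 ± 0.30, adjusted p = 0.0145 by edgeR). SCD, the stearate desaturase of the endoplasmic reticulum, had a log2 change of -1.62 ± 0.41 (adjusted p = 0.0239), a call that ended without steer 1 or 3 or without calf 3 or 4. Both are targets of several lipid-sensing factors besides the PPARs.

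Low oxygen also drives HILPDA, ANGPTL4 and the perilipin PLIN2 in other tissues, so its targets were listed beside them. Of 23 tested, 6 rose and 0 fell, with a median of 0.61. LDHA, which makes lactate, averaged 817 CPM in steers and 267 CPM in calves (log2 change 1.62 ± 0.39, adjusted p = 0.0207 by edgeR), a call that ended without calf 1, 2 or 4. NDRG1 rose by 1.32 (adjusted p = 0.0206) and EGLN1, an oxygen-sensing hydroxylase, by 1.15 (adjusted p = 0.0267). The NDRG1 call ended without calf 1 or calf 4, and the EGLN1 call without calf 1, 2 or 4. ADM, PFKFB4 and MXI1 were the other 3 that rose.

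Over all these lists and the cell type markers, 49 genes other than the 9 were named by rule as called. Of these, 20 remained called without calf 2 and calf 4 together, and 0 changed sign. Among all 2752 genes called with every library, 1071 remained called in that fit. That fit keeps only 2 calves.

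**Figure D5:**
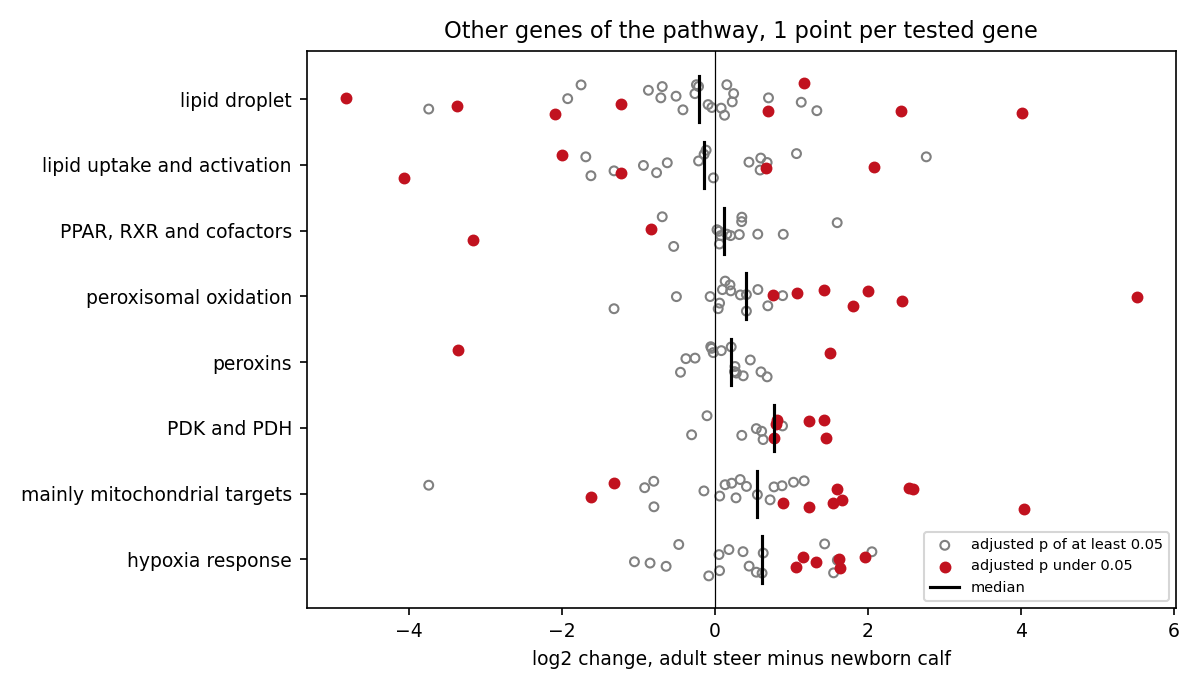
Log2 change (steer minus calf) of each tested gene in 8 lists of pathway genes, with genes at an adjusted p under 0.05 filled and the median of each list as a bar. Called genes of peroxisomal oxidation, of the pyruvate dehydrogenase system and of the hypoxia response all lie above 0, while called droplet genes lie on both sides.

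The genes whose profile over the 8 libraries was closest to each member were found by root mean square distance of centred log2 CPM. They were picked from 8747 candidates for their likeness in these same libraries, so a shared order of animals is no separate result. Closest to PLIN2 were UGDH, at a distance of 0.241, GCLC at 0.271 and CRYL1 at 0.276. UGDH makes UDP-glucuronate and had 113, 49.7, 76.8 and 304 CPM in steers 1 to 4, against 13.98, 18.2, 28.8 and 21.1 CPM in calves 1 to 4. It ran in the same order as PLIN2 in the steers, highest in steer 4 and lowest in steer 2. GCLC, the catalytic subunit that starts glutathione synthesis, had 28.0, 10.97, 24.4 and 67.4 CPM in steers 1 to 4, against 5.08, 7.23, 10.4 and 9.62 CPM in calves 1 to 4.

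For FABP5 the closest were CELF6 (0.215), CYCS (0.253) and SAMD10 (0.257), and for EHHADH they were RIMKLB (0.227), EPB41L4A (0.227) and DBN1 (0.238). CYCS, the cytochrome c of the respiratory chain, averaged 130 ± 43.7 CPM in steers and 47.7 ± 16.7 CPM in calves. DBN1, an actin-binding protein, averaged 23.6 ± 6.78 CPM in steers and 117 ± 19.1 CPM in calves. For PLIN3 the distances were 0.160 for TSTD1, 0.164 for HPRT1 and 0.179 for SLC35B1.

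ANGPTL4 and PDK4 shared KLF11, a zinc finger transcription factor, among their closest, at 0.357 and 0.318. KLF11 had 20.8, 61.1, 53.5 and 25.4 CPM in steers 1 to 4, against 16.6, 65.5, 13.1 and 26.1 CPM in calves 1 to 4. It was high in steers 2 and 3 and calf 2, as were ANGPTL4 and PDK4. The others were RIPOR3 (0.444) and CNTFR (0.510) for ANGPTL4, and COL4A1 (0.276) and SHISAL1 (0.345) for PDK4. CD36 had no near match among genes with a mean of at least 10 CPM, and its closest were ANGPTL4 at 1.10, GPAM at 1.13 and ACSL1 at 1.15. Genes under that level, such as PLIN1, were not compared. The distance is not scaled by the spread of a gene, so it runs large for a gene as variable as CD36. GPAM and ACSL1, which start glycerolipid synthesis and activate fatty acids, were highest in calf 4 at 29.5 and 91.3 CPM.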

How the data were processed

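Per the labels' protocols, RNA from rumen tissue was made into dUTP-stranded libraries with random hexamers and 10 PCR cycles. The submitters' processing notes name Trimmomatic 0.39, STAR 2.7.11a, featureCounts 2.0.2 and DESeq2 1.42.0. The authors deposited raw counts per gene name. Per the file headers, featureCounts counted reads over whole transcript spans, with no strand option and both mates counted, and dropped reads that overlap more than 1 gene. A gene therefore loses reads where a neighbour overlaps, and antisense reads are included. The table's other column, the deposited length, equalled the counted span for all 33132 genes. Positions are 1-based as in the deposited file, and no source used here names its genome build. A table of the ARS-UCD2.0 assembly, which matched 27621 symbols, gave only names and chromosome numbers.

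Counts were tested with edgeR 4.0.16 in R 4.3.3 (filterByExpr with a count minimum of 10, TMM, robust quasi-likelihood fit, Benjamini-Hochberg over all tested genes), without covariates. The labels name separate animals, so p-values measure the spread between animals. Replicate libraries were checked and none repeated another. Ratios within a library used 0.5 added counts and exact two-sided permutation tests. Exact 95% intervals and a floor of 3 counts cover counting error only. Alternatives were other scalings and filters, DESeq2 1.42.0, limma-voom (limma 3.58.1), marker covariates, a replicate block and leaving out libraries. The fits were tested on simulated data.

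The 9 genes and all lists were chosen with earlier results of these data known. Named besides the 9 were, from each list, up to 3 called genes per direction with the highest CPM (or the 2 most abundant tested genes where fewer than 2 were called), the ratio partners, the PPAR genes, and for each tested member the 3 genes with the closest profile among those of at least 10 CPM. Some genes that this rule names are not reported here.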

Additional observations from a re-analysis of the deposited data

Results flagged for a closer look

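A sample was singled out where its gap to the nearest of the other 3 of its group, divided by the range of the group, was above the 95% critical value of Dixon's test for 4 samples. Of 152 groups checked, 8 were past it, and chance gives about 1 in 20. Of the 9 genes, PLIN5 was marked in steers, where steer 1 had 0.05 CPM and the others 0, a difference of 2 counts.

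Among the other named genes, steer 1 stood apart for SLC27A3 at 21.5 CPM, the highest of the steers. Steer 4 was high for ETFDH at 378.6 CPM and for EGLN1 at 287 CPM, and steer 2 was high for TNNT3 at 11.89 CPM. Among calves, calf 2 was low for ACADS at 100.7 CPM, calf 3 was high for LDHA at 422.4 CPM and calf 4 was high for THRSP at 15.08 CPM. The calls of ETFDH, LDHA and EGLN1 each ended without calf 1, 2 or 4. They held without the animal singled out here, steer 4 for ETFDH and EGLN1 and calf 3 for LDHA.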

How the results depend on the processing

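PLIN2 and EHHADH kept their direction and their call under every planned setting, and EHHADH also without calf 2 and calf 4, a fit added after seeing the data. The FABP5 call was also lost with DESeq2's size factors in edgeR (adjusted p = 0.0514) and without calf 2 and steer 4 (0.0861). The count of members called was 3, 2 to 3 with 1 library left out, and 4 with no filter, where PLIN5 was added. Genes called numbered 2752 of all tested, 1831 with the replicate block, 1817 with the adipocyte covariate, 1148 without calf 2 and calf 4, and 1734 (without calf 1) to 3257 (without steer 4) with 1 library left out. The labels state no pairing of same-numbered steers and calves. Their deviations correlated at 0.20, 0.08, -0.10 and -0.27, against -0.39 to 0.34 for differently numbered animals, which cannot show whether a batch was shared. The block changed no call of the 9 genes. With library size alone 34.9% of calls were higher in steers, against 45.7%, and the median of all genes moved by -0.11. The log2 PLIN2/PLIN5 ratio difference, 5.74 and 3.13 without calf 2 and calf 4, depends on the 0.5 added to PLIN5 counts of 0 and is no estimate of size.

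Signs turned for uncalled genes. With the smooth muscle covariate PLIN3 was 0.039, ANGPTL4 -0.16, PDK4 -0.51 and PDK2 -0.12. With 1 library left out ANGPTL4 ran from -0.015 (without steer 2) to 1.03. PDK4 was -0.049 with library size alone and ran from -0.27 (without steer 3) to 0.89 (without calf 2), with -0.08 without calf 1 and -0.12 without calf 3. CD36 was 0.50 with the adipocyte covariate and 2.15 without calf 2 and calf 4. LPL was 0.25 with the replicate block, -0.99 (without calf 1) to 0.53 (without calf 4) with 1 library left out, 1.15 with the adipocyte covariate and 1.38 without calf 2 and calf 4. The cause was not tested. PLIN5 and HILPDA had 0 to 72 and 0 to 5 counts per library, too few to pass the filter.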
